A study of Caenorhabditis elegans with 51 samples.

Results

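The genes described here are the nuclear hormone receptor family of Caenorhabditis elegans, taken as every gene whose WormBase symbol is nhr- followed by a number, apart from the moulting regulators nhr-23 and nhr-25. The time-course count table lists 266 such genes, and the 211 with at least 100 counts summed over its 22 libraries were kept, out of 44200 genes in the table. Just inside that minimum were nhr-159 with 108 counts and nhr-229 with 127 counts, and just outside it were nhr-283 with 93 counts and nhr-196 with 87 counts. Membership rests on the symbol, and no protein or domain annotation was used.

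Nuclear hormone receptors are transcription factors that bind DNA through a zinc-finger domain, and many of them also carry a pocket for a small lipophilic ligand. The worm family is far larger than that of other animals, and most of its members descend from an HNF4-like receptor. The members that have been studied act in fat and energy metabolism, moulting and development, and the response to toxins and pathogens, and for most of the others no function is known.

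RNA from whole animals was counted in 5 experiments that alter XRN2, a nuclear 5'-3' exoribonuclease linked to transcription termination. The strain HW1660, which carries the temperature-sensitive allele xrn-2(xe31) and is called xe31 here, and the wild type N2 (WT) were grown for 59 h at 15 °C to early L4, shifted to 26 °C and sampled once per hour between 0 and 10 h (11 xe31 and 11 WT libraries). RNA of both strains at 6 and 10 h was read again more deeply (2 xe31 and 2 WT libraries), which adds reads but no new animals. Strain HW2216 carries xrn-2(xe31) together with a GFP-tagged transgene, xrn-2(D234/236A)::gfp, described as catalytically dead. It is called xrn-2cd here, and no source used here names its promoter. It was sampled at 6 and 10 h after the same shift beside its own WT (2 libraries each). The RNAi experiments used N2 kept at 20 °C and treated between L1 and mid-L4 with xrn-2 RNAi or with the empty vector as mock. They comprise 1 xrn-2 RNAi and 1 mock library of polyA RNA, and 2 xrn-2 RNAi libraries and 1 mock library after rRNA depletion.

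Gene counts per library ranged between 41238235 and 57832479 in the time course, 239213652 and 253142688 in the resequenced libraries, 49628394 and 74356542 in the xrn-2cd experiment, and 21695913 and 23817072 in the rRNA-depleted libraries, with 44605077 in the xrn-2 RNAi and 36463650 in the mock polyA library. The xrn-2 transcript stood at 79.5 CPM (gene counts scaled to a common library size) under polyA RNAi against 132 CPM in mock. In the rRNA-depleted libraries it stood at 65.9 and 72.7 CPM under RNAi against 79.95 CPM in mock. For the xe31 allele and the xrn-2cd transgene the transcript level is no check of the labels. It was 136 to 307 CPM in xe31 libraries against 107 to 191 CPM in WT, and 428 to 504 CPM in xrn-2cd libraries against 110 to 124 CPM in WT. Markers of oocytes, sperm, intestine, epidermis, body wall muscle, neurons and yolk were detected in every experiment. In RNA of whole animals, fewer cells of a type and less RNA per cell cannot be told apart.

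Counts of most members were low. The mean over the WT hours was below 1 CPM for 41 members, between 1 and 10 CPM for 123 and at least 10 CPM for 47, with a median of 4.78 CPM. The 5 highest means were those of nhr-114 (134 CPM), nhr-97 (120.2 CPM), nhr-49 (102 CPM), nhr-68 (86.8 CPM) and nhr-31 (86.2 CPM), and CPM values are not scaled for transcript length. Member genes took 0.180% to 0.258% of the gene counts in xe31 libraries and 0.174% to 0.249% in WT libraries. By the gene order of RefSeq assembly WBcel235, 136 of the 211 members (64.5%) lie on chromosome V, which holds 4995 of 19983 protein-coding genes. A further 30 lie on chromosome IV, 18 on X, 11 on II, 9 on I and 7 on III. Next to another nhr-number gene lay 110 members, 94 of them on chromosome V. The longest uninterrupted run holds 9 nhr genes, nhr-185 to nhr-124, and 3 further runs hold 7 each. No source used here states whether counting used strand. Overlapping, antisense or near-identical neighbours, such as nhr-253 and nhr-254, could therefore share reads.

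The course of the family through L4 was described first within each strain, as late hours (6 to 10 h) against early hours (0 to 2 h). Levels fell in both. In xe31 88 of 207 fitted members fell and 14 rose (edgeR quasi-likelihood test, BH-adjusted p under 0.05 over all genes), where 29.6% of all 16683 genes tested fell and 29.9% rose. The median log2 change was -0.39 for members and -0.03 for all genes. In WT 71 of 199 members fell and 11 rose, where 28.7% of all genes fell and 28.7% rose, with medians of -0.36 and -0.05. Each strain had its highest level at 0 h for 75 members. Of the members that fell in WT 56 also fell in xe31, which is 63.6% of the xe31 falls and 78.9% of the WT falls. The peak hours and this overlap are not given over all genes, so neither is read as a trait of the family.

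Among receptors with named relatives in other animals, nhr-91, the worm relative of germ cell nuclear factor, fell furthest. In xe31 its late mean was 5.41 CPM against 53.4 CPM early (log2 change -3.32 ± 0.33 SE in edgeR). In WT it stood at 67.2, 61.1 and 30.1 CPM at 0 to 2 h, at 11.3, 4.64 and 7.28 CPM at 3 to 5 h, and between 3.81 and 8.05 CPM later, and the late and early values do not overlap (-3.25 ± 0.36 SE in WT, edgeR, BH-adjusted p = 0.000228). The tailless relative nhr-67 fell by 0.87 on the log2 scale in xe31 and by 1.18 in WT, and nhr-41, a relative of the testicular receptors, fell by 1.52 in xe31 and by 1.29 in WT. The nhr-41 call was lost in xe31 without 2 h and in WT without 1 h or 2 h. Of the 7 fitted members of this list, 3 fell and none rose in each strain.

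Metabolic receptors moved in both directions. The largest fall was in nhr-114, which protects the germline under poor diets and is linked to vitamin B12 and methionine. In xe31 its levels at 6 to 10 h were 49.4, 51.8, 81.2, 116 and 104 CPM, against 442, 242 and 169 CPM at 0 to 2 h (log2 change -1.85 ± 0.39 SE, edgeR, BH-adjusted p = 0.00284). In WT they were 53.6, 42.1, 61.7, 99.1 and 113 CPM against 361, 239 and 177 CPM (-1.81 ± 0.34). Late and early values do not overlap in either strain. The propionate shunt regulators nhr-68 and nhr-10 and the fat desaturase regulator nhr-80 fell less, by 0.53, 0.34 and 0.53 on the log2 scale in xe31 and by 0.57, 0.32 and 0.65 in WT. The nhr-80 call in xe31 was lost without 0 h or 7 h, and the nhr-10 call in WT without 0 h or 1 h. By contrast nhr-76, which acts in serotonin-driven fat loss, rose. In xe31 its late mean was 21.0 CPM against 8.68 CPM early (1.25 ± 0.22). Its late WT values of 14.9, 17.1, 22.4, 22.5 and 23.2 CPM all lay above its early WT values of 9.37, 9.30 and 8.97 CPM (1.12 ± 0.20, BH-adjusted p = 0.00104, edgeR). Of 13 metabolic receptors 5 fell and 2 rose in xe31, and 4 fell and 3 rose in WT. Summed intestinal markers were 3329 to 5564 CPM in late against 5561 to 8087 CPM in early xe31 libraries, and 3830 to 5457 CPM in late against 6422 to 8812 CPM in early WT libraries, and their part in these falls was not tested.

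Several larger falls were in members outside the role lists. In xe31 the leading falls were nhr-265 (-4.79), nhr-234 (-4.31), nhr-113 (-3.38), nhr-91 and nhr-155. In WT the late mean of nhr-234 was 0.956 CPM against 33.0 CPM early (log2 change -5.11 ± 0.58 SE, edgeR, BH-adjusted p = 0.00023). Its neighbour nhr-235 fell by 2.68 and nhr-155 by 2.63, but both calls were lost without 0 h. Falls of 2.28 to 4.19 were called for nhr-113, nhr-74, nhr-172 and nhr-149. The largest xe31 rises were in nhr-249 (6.07), nhr-38 and nhr-241 (4.64 each), nhr-2 (4.15), nhr-253 (4.14) and nhr-254 (4.03). The largest WT rises were in nhr-249 (3.88), nhr-2 (2.88), nhr-38 (2.85) and nhr-171 (2.22), genes with late WT means between 0.195 and 2.25 CPM. One member, nhr-236, rose in xe31 (log2 2.23) and fell in WT (-0.68).

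**Figure D1:**
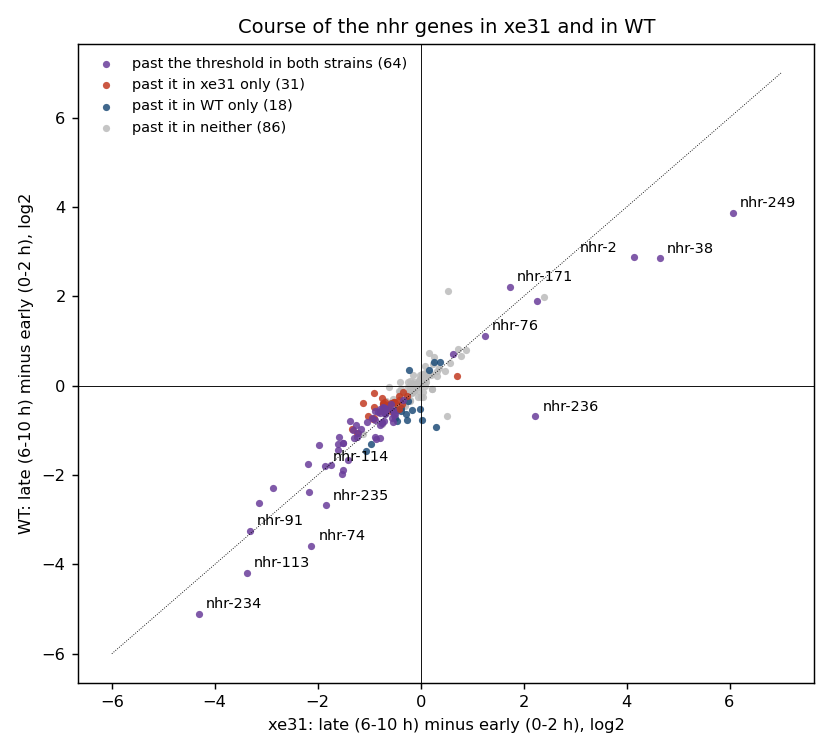
Late (6 to 10 h) minus early (0 to 2 h) log2 change of 199 nhr genes, in xe31 on the horizontal and in WT on the vertical axis, with a dotted line where both are equal. Of these genes 64 passed the threshold in both strains, 31 in xe31 alone, 18 in WT alone and 86 in neither, and nhr-236 is the member called in opposite directions. The same split over all genes is not given here.

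The middle hours (3 to 5 h) were set against the mean of early and late hours to look for peaks. In xe31 2 members were called up and 0 down (2.06% and 1.41% of all genes), nhr-127 with a log2 difference of 2.95 and nhr-280 with 2.58. At an unadjusted p under 0.05 the xe31 middle hours were higher for 15 members and lower for 21 (19% and 10.7% of all genes), and DESeq2 called 12 up and 11 down. Between the edgeR fits that left out 1 hour the xe31 count ranged over 0 to 10 up and 0 to 12 down. In WT 0 members were called in edgeR, where 0% of all genes were called in either direction, although at an unadjusted p under 0.05 the middle hours were higher for 10 members and lower for 22 (20.1% and 9.18% of all genes), and DESeq2 called 4 up and 13 down.

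The main question of the time course is how xe31 departs from WT after the shift. The strains differed little in this family at first. At 0 to 2 h 1 of 209 fitted members was higher and 2 were lower in xe31 (edgeR, BH), where 6.67% of all 17123 genes were higher and 1.02% lower. The median log2 difference was -0.02 for members and 0.01 for all genes. The early rise was in nhr-155, with 6.67, 5.82 and 5.11 CPM in xe31 against 5.07, 2.24 and 1.92 CPM in WT (1.03 ± 0.27 SE), ranges that do not overlap. The early falls were in nhr-235 (-0.61) and nhr-121 (-0.41). Leaving out 1 of the 11 hours ended the nhr-155 call in 5 fits and the nhr-235 call in 6, and nhr-121 lost its call without 0 h, 1 h or 2 h.

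At 3 to 5 h 3 members were higher and 7 lower in xe31, where 10.1% of all genes were higher and 5.41% lower. The 3 were nhr-2 (log2 difference 2.05 ± 0.38 SE), nhr-239 (1.35) and nhr-236 (1.16), and the lower ones were nhr-234 (-0.92), nhr-235 (-0.84), nhr-210, nhr-108, nhr-15, nhr-61 and nhr-176 (-0.47), the last a receptor in the response to the anthelmintic thiabendazole. Each of these 10 calls was lost in at least 1 fit that left out an hour, that of nhr-2 without 5 h.

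At 6 to 10 h 16 members were higher and 50 lower in xe31, the largest set of calls among the 3 windows. This is 7.66% and 23.9% of the 209 fitted, where 17.3% of all genes were higher and 20.8% lower. The median log2 difference was -0.11 for members and -0.03 for all genes, and it stayed at -0.11 with nhr-241 set to its lower bound. The rises were few and included large ones, with 10 of 16 past 2-fold and the smallest at 0.21 on the log2 scale. The falls were many and small, between -0.14 and -0.59, and 39 of the 50 were lower in each of the 5 late hours. In the same libraries sperm markers summed to 522 to 652 CPM in xe31 against 398 to 552 CPM in WT, oocyte markers to 412 to 1134 against 452 to 2613 CPM, and intestinal markers to 3329 to 5564 against 3830 to 5457 CPM, and their part in these differences was not tested.

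**Figure D2:**
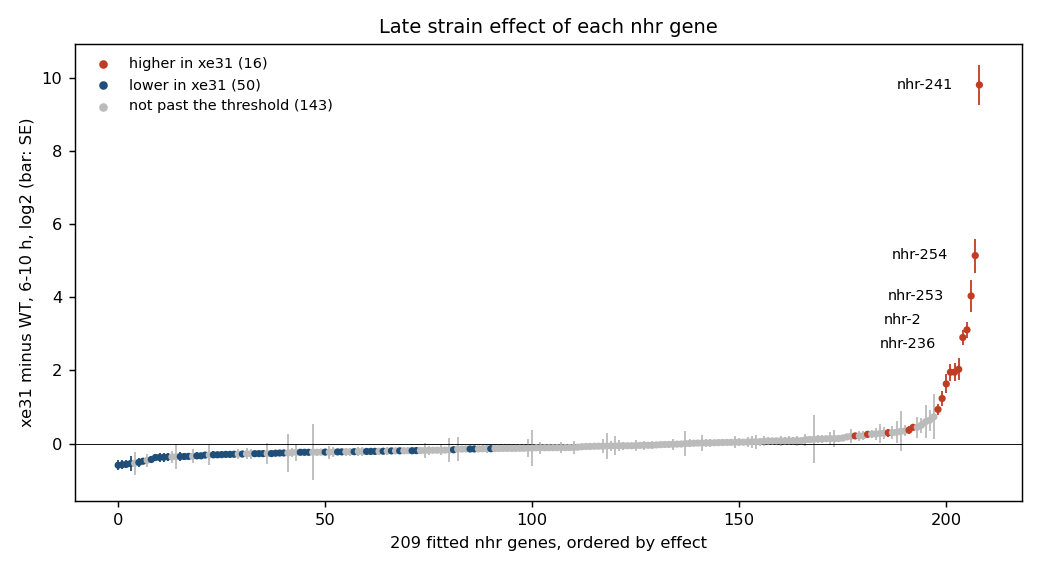
Fitted log2 difference between xe31 and WT at 6 to 10 h for the 209 fitted nhr genes in order of effect, with bars of 1 SE. Red points are the 16 members higher in xe31 and blue points the 50 lower ones, none of which reached -1. The fitted value of nhr-241 rests on 0 counts in late WT libraries and is no measure of its fold.

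A large rise was that of nhr-2, a receptor expressed and needed in the early embryo. Its late levels were 7.93, 12.1, 14.5, 21.5 and 27.2 CPM in xe31, against 0.635, 0.761, 1.43, 3.04 and 5.39 CPM in WT. Every late xe31 value lay above every late WT value (log2 difference 3.11 ± 0.22 SE, edgeR, BH-adjusted p = 2.72e-06, n = 5 hours). The level climbed in both strains, and in xe31 it was 5.11 CPM at 5 h, when WT stood at 0.735 CPM. The other embryo and tissue receptor, nhr-40, which acts in body wall muscle, was lower at 17.2, 18.3, 17.1, 13.6 and 13.1 CPM in xe31, against 21.4, 19.9, 17.5, 17.4 and 18.4 CPM in WT, lower in 5 of 5 hours although the ranges overlap (-0.29 ± 0.08, BH-adjusted p = 0.0107 in edgeR).

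Most other large rises were in receptors without a known role that WT animals barely expressed. The minimum count for membership was summed over both strains. A gene near 0 counts in WT was therefore kept only through its xe31 libraries. Such rises say little about how many receptors barely expressed in WT share the pattern. Counts of nhr-241 were 28, 38, 104, 204 and 315 in late xe31 libraries against 0 in each of the 5 late WT libraries, which is at least 222-fold higher when 3 counts over the WT group are taken as the floor. The neighbours nhr-254 and nhr-253 had late means of 0.944 and 0.879 CPM in xe31 against 0.0210 and 0.05003 CPM in WT (log2 5.14 ± 0.47 and 4.03 ± 0.43), and neither gene's late values overlapped between strains. For nhr-236 the late values were 1.87, 2.21, 2.90, 3.29 and 4.78 CPM in xe31, against 0.304 to 0.437 CPM in WT (2.90 ± 0.21). Smaller steps of 1.95 to 2.03 were called for nhr-239, nhr-249 and nhr-38. These 7 genes and nhr-2 kept their direction and their call under each alternative run, including fits that set each xe31 library against WT 1 h earlier or 1 h later.

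**Figure D3:**
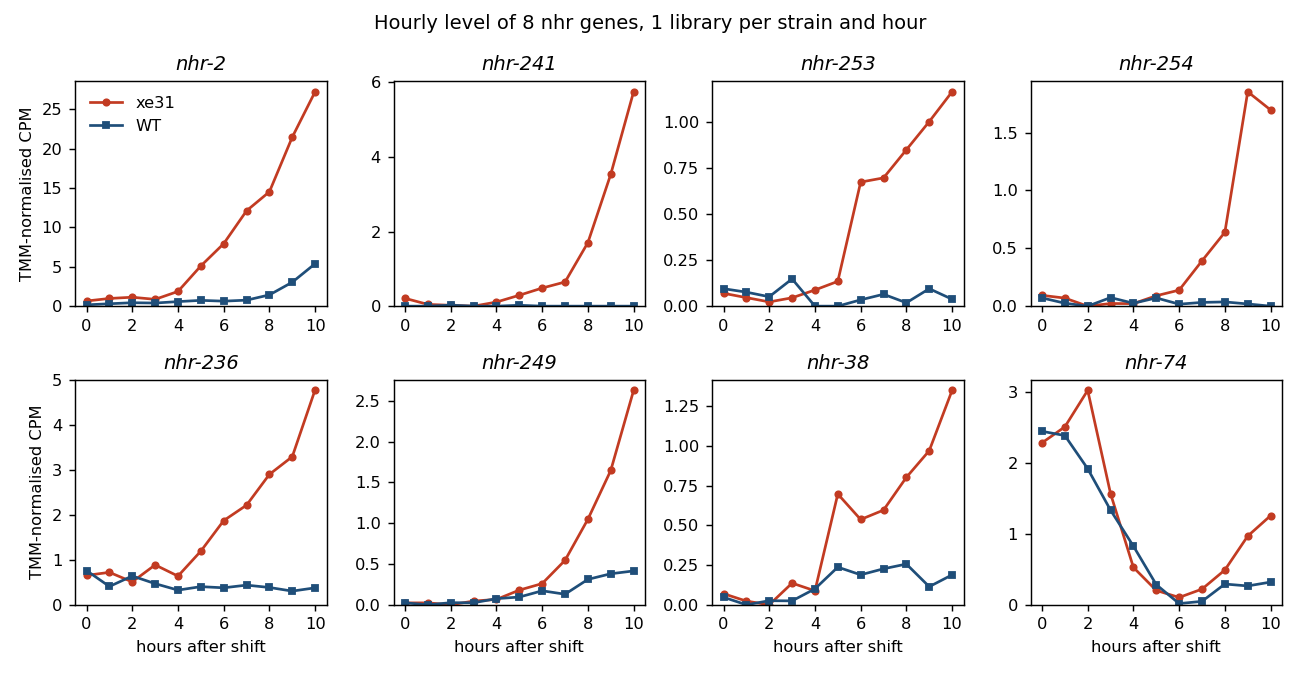
Level of 8 nhr genes in TMM-normalised CPM against hours after the shift, with 1 library per strain and hour, xe31 in red circles and WT in blue squares. At 10 h the xe31 point lies above the WT point for all 8, as for nhr-2 with 27.2 against 5.39 CPM and nhr-74 with 1.26 against 0.320 CPM.

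The remaining rises were in nhr-74 (log2 1.63), nhr-113 (1.23), nhr-273 (0.93), nhr-47 (0.44), nhr-122, nhr-211, nhr-104 and nhr-49. The last is a central regulator of fat metabolism and of the fasting response, and its late levels were 108, 109, 109, 121 and 132 CPM in xe31, against 97.9, 97.5, 89.0, 95.2 and 113 CPM in WT. These ranges overlap at the highest WT hour (0.21 ± 0.04 SE, edgeR, BH-adjusted p = 0.00133). Set against WT 1 h later, the difference was 0.16 and its call was lost (BH-adjusted p = 0.0504 in edgeR), as it was without the hour block (0.21, BH-adjusted p = 0.0878). Of the 16 risen members 12 had a fitted window upstream of the gene, and it was called higher in late xe31 for 11 of them. It was called higher for 1 of 19 fallen members, 7 of 50 without a call and 41.3% of all genes. Some of these windows reached their minimum of counts through the xe31 libraries, so the share says little about how many risen genes have the pattern. Their counts are given with that window. The part of reads from outside the gene in the rises was not tested.

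Among the small falls, nhr-57, a hypoxia-induced gene, was at 2.46, 3.22, 2.31, 2.60 and 2.81 CPM in xe31, against 2.45, 3.56, 4.32, 4.01 and 4.75 CPM in WT (log2 -0.52 ± 0.13 SE, edgeR, BH-adjusted p = 0.00758), with overlap at 6 h. The pathogen-metabolite sensor nhr-86 was lower by 0.15 on the log2 scale, a call lost without 7 h. Of the metabolic receptors, nhr-69 was at 20.2, 18.5, 17.6, 16.6 and 16.7 CPM in xe31, against 25.001, 22.8, 21.2, 19.9 and 19.1 CPM in WT (-0.29 ± 0.04), ranges that overlap, although xe31 was lower in 5 of 5 hours. The excretory cell regulator nhr-31 was at 55.6 to 86.7 CPM in xe31 against 72.2 to 97.2 CPM in WT (-0.26 ± 0.05). The larger falls among members without a role here were nhr-207 (-0.59), nhr-59 (-0.57), nhr-61 (-0.48), nhr-99 (-0.44), nhr-152 and nhr-230 (-0.38 each), nhr-15 (-0.37) and nhr-108 (-0.35). The call of nhr-230 was lost in 6 of 11 fits that left out an hour. The count of falls depends on how the courses are aligned: it was 17 with xe31 set against WT 1 h earlier, 16 against WT 1 h later, and 1 without hour as a block. Leaving out 1 hour gave 31 to 54 falls.

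Over all genes 17.3% rose and 20.8% fell, and nothing particular to a role list is read from its count. By role, 0 of 7 fitted conserved receptors were called in late xe31 (edgeR), with 1 of them, nhr-48 (-0.10), at an unadjusted p under 0.05, and log2 differences between -0.13 for nhr-8 and 0.30 for nhr-67. Of 13 metabolic receptors 1 rose and 2 fell, of 5 stress and xenobiotic receptors 0 rose and 2 fell. Among receptors outside the family definition 3 of 6 rose and 0 fell. The receptor unc-55, which sets motor neuron synapse patterns, was at 6.20 CPM in xe31 against 0.588 CPM in WT (3.30 ± 0.35 SE). The others were the neuronal fate gene fax-1 (1.06) and the moulting receptor nhr-23 (0.11). The window upstream of unc-55 held 36, 48, 76, 87 and 103 counts at 6 to 10 h in xe31, against 0, 1, 0, 0 and 3 in WT. That of fax-1 held 6, 5, 4, 13 and 10 against 2, 1, 0, 1 and 1. The part of reads from outside these genes in their rises was not tested. Of 6 genes for coregulators and ligand synthesis, 1 was called, the corepressor din-1 (0.16), while the mediator subunit mdt-15 was at -0.08. Of 13 metabolic and defence targets 3 rose and 2 fell. The fatty acid desaturases fat-7 and fat-5 rose (0.76 and 0.51), as did the infection response gene irg-5 (0.39), and the glyoxylate enzyme icl-1 and the propionate shunt enzyme hphd-1 fell (-0.30 and -0.17).

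The late difference was then set against the early one in the same fit, a test of the change itself. It was positive for 7 members and negative for 8, where 5.71% and 13.3% of all genes were called. Late exceeded early for nhr-253 (4.68), nhr-254 (4.42), nhr-236 (2.83), nhr-74 (1.42), nhr-273 (1.16), nhr-235 and nhr-234. Late was below early for nhr-99 (-0.75), nhr-207, nhr-61 (-0.60), nhr-59, nhr-107, nhr-20, nhr-43 and nhr-69 (-0.33). For nhr-2 the difference was not called. The calls that held in each fit leaving out an hour were those of nhr-236, nhr-273, nhr-99, nhr-61, nhr-20 and nhr-69.

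RNA past the gene end was measured as counts in the downstream window relative to the gene's own counts. At 0 to 2 h 1 of 132 fitted members had a higher ratio in xe31 and 0 a lower one, where 0.888% and 0.071% of all genes were called. This was nhr-68, at 1.28 downstream counts per 100 gene counts in xe31 against 0.390 in WT (log2 1.72 ± 0.37 SE, edgeR, BH-adjusted p = 0.0119), a call lost without 1 h or 2 h. At 6 to 10 h the ratio was higher for 45 members and lower for 3. That is 34.1% and 2.27% of the 132, where 48.1% and 2.45% of all 11263 genes were called, and the median log2 change was 0.79 for members and 1.07 for all genes.

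Of 11 fitted metabolic receptors, 8 had a higher late ratio and none a lower one. For nhr-49 58 downstream counts were found in late xe31 against 0 in late WT, with 33518 and 27579 gene counts, a ratio at least 15.9-fold higher against a floor of 3 counts over the WT group. The genes nhr-49, nhr-114, nhr-66, nhr-80 and nhr-76 reached the minimum of 20 downstream counts through their xe31 libraries. Calls among such genes say little about how many receptors share the pattern. The ratio of nhr-114 was 0.642 per 100 in xe31 against 0.0148 in WT (log2 5.09 ± 0.57 SE), that of nhr-66, a lipid metabolism partner of nhr-49, 0.350 against 0.00633 (5.05 ± 0.72), and that of nhr-68 6.10 against 0.424 (3.73 ± 0.26, edgeR, BH-adjusted p = 3.29e-12). No late WT library held more than 2 downstream counts for nhr-114 or more than 1 for nhr-66. Of 4 fitted stress receptors 3 were called, with nhr-86 at 11.9 per 100 in xe31 against 0.413 in WT (4.77 ± 0.27). The metabolic calls of nhr-80, nhr-13 and nhr-64, with changes of 2.06, 1.85 and 1.08, were each lost in 2 or 3 fits that left out an hour. Of 6 conserved receptors 3 were called, among them the sterol and xenobiotic receptor nhr-8 at 0.687 against 0.0699 (3.14 ± 0.55). Without a role in the lists, nhr-146 reached 15.99 per 100 in xe31 against 0.404 in WT (5.13 ± 0.45). The ratio was lower for nhr-239, nhr-253 and nhr-74, whose gene counts had risen. For nhr-253 it was 59.8 per 100 in xe31 against 207 in WT (-1.71), it reversed to 2.46 when library size replaced gene counts as the base, and its call was lost without 9 h or 10 h.

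The upstream window was tested against library size. At 6 to 10 h it was higher in xe31 for 19 of 81 fitted members and lower for 1. Of all genes, 41.3% were called higher and 2.08% lower. The median log2 difference was 0.50 for members and 0.96 for all genes. The counts over the late hours were 645 in xe31 against 1 in WT for nhr-241, 241 against 5 for nhr-249, 166 against 2 for nhr-253 and 141 against 3 for nhr-2. For nhr-241 they nearly equalled the 689 counts of the gene itself. Each of these genes reached the minimum of 20 upstream counts through its xe31 libraries, so the calls among them say little about how many risen genes share the pattern. In late xe31 nhr-49 had 38 upstream counts against 3 in WT, and nhr-114 had 112 against 42. The lower one, nhr-150 (-0.33), lost its call in 6 of 11 fits that left out an hour.

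In the xrn-2cd strain the downstream ratio was higher for 55 of 126 fitted members and lower for 4, or 43.7% and 3.17%, where 46.4% and 1.88% of all 10972 genes were called. The median log2 change was 2.18 for members and 2.38 for all genes. Here 11 of 12 fitted metabolic receptors were called higher. Most of these genes reached the minimum of 20 downstream counts through their xrn-2cd libraries. In WT at 6 and 10 h nhr-10 had 0 and 0 downstream counts and nhr-64 had 9 and 6, while nhr-68 had 46 and 20. Such calls therefore say little about how many receptors share the pattern. The ratio of nhr-114 was 2.39 per 100 in xrn-2cd against 0.00442 in WT, or 118 against 1 downstream counts, and that of nhr-49 was 1.97 against 0.0129 (log2 7.15 ± 0.93 SE, edgeR, BH-adjusted p = 0.00451). For nhr-8 it was 6.94 against 0.0211 and for the iron uptake receptor nhr-14 10.0 against 0.0638. These WT ratios rest on few reads. At 6 and 10 h the WT downstream counts were 0 and 1 for nhr-8, and 2 and 0 for both nhr-14 and nhr-49. Downstream counts were 0 in WT for nhr-137, nhr-35, nhr-181 and nhr-63, whose ratios were at least 47.6-fold, 26.3-fold, 25.7-fold and 22.99-fold higher. Among the 4 lower ratios, nhr-97 had 803 downstream counts in xrn-2cd against 9236 in WT, with 14838 and 12284 gene counts (-4.13 ± 0.69). That window also moved with the hour: in the time course it held 6 counts at 0 h and 5185 at 10 h in xe31, and 5 at 0 h and 5042 at 10 h in WT. In the WBcel235 gene order nhr-97 lies between C28D4.8 and ssp-36, summed sperm markers were 68.6 to 157 CPM in xrn-2cd against 447 to 598 CPM in WT, and reads of a neighbouring gene in the window cannot be told apart from readthrough. The others were nhr-74, nhr-239 and nhr-127, whose WT gene counts were 23, 13 and 6.

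**Figure D4:**
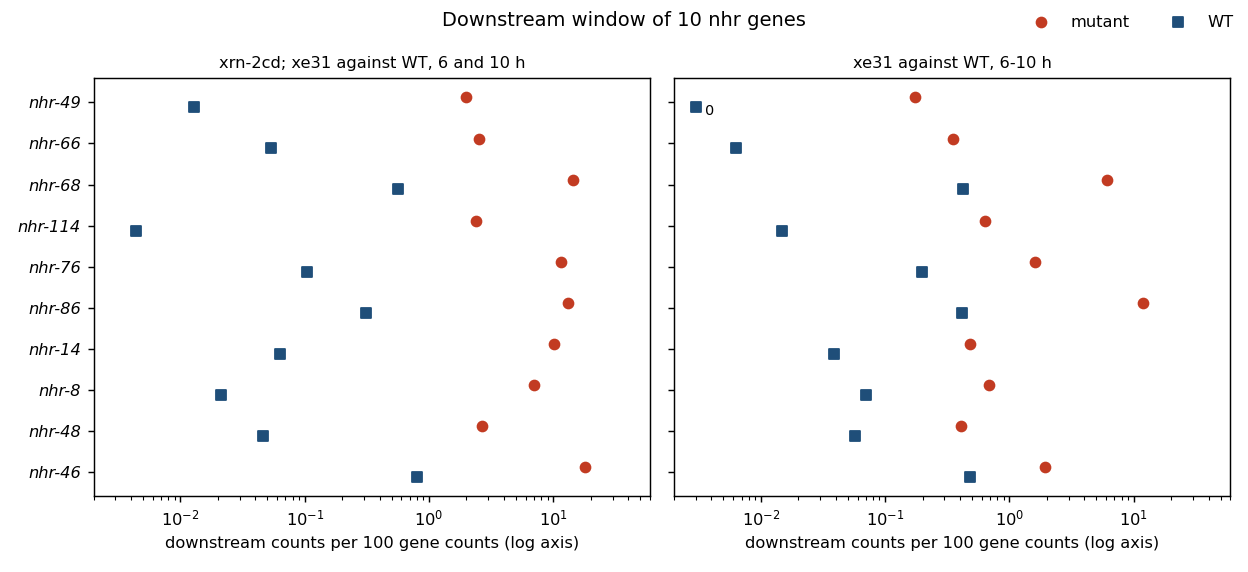
Downstream counts per 100 gene counts on a log axis for 10 nhr genes called higher in both comparisons, in xrn-2cd against WT (left, 6 and 10 h) and in xe31 against WT (right, 6 to 10 h), mutant in red circles and WT in blue squares. Each mutant point lies to the right of its WT point, as for nhr-86 with 13.2 against 0.313 on the left and 11.9 against 0.413 on the right, and the late WT point of nhr-49, marked 0, is drawn at the left edge.

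In the expression of the genes themselves, the xrn-2cd strain differed from its WT across much of the family in the fitted values. Of 207 fitted members 166 had a positive and 41 a negative log2 difference, with a median of 0.76 against 0.09 over all 17212 genes. With 2 libraries per strain, edgeR called 0 members at a BH-adjusted p under 0.05, where it called 0.697% of all genes up and 0.465% down. The smallest adjusted p of a member was 0.0537. The unadjusted p was under 0.05 for 25 members with higher and 3 with lower levels, beside 18.2% and 11.4% of all genes. With DESeq2 size factors edgeR called 7 members up, and without the filter on low counts 6. Without that filter the median over all genes was 0.40. Using 1 hour alone, the median member difference was 0.61 or 0.44.

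The largest values were in genes at or near 0 in WT. At 6 and 10 h nhr-265 had 5.47 and 3.07 CPM in xrn-2cd against 0 in both WT libraries, at least 162-fold higher, and nhr-241 had 6.50 and 1.38 CPM against 0 in both, at least 150-fold higher. For nhr-254 306 counts in xrn-2cd stood against 1 in WT, a ratio of 294 with a 95% counting interval of 52.3 to 11644. The gene nhr-113 was at 5.72 and 3.15 CPM in xrn-2cd against 0.0572 and 0.0462 CPM in WT, and nhr-155 at 4.94 and 4.05 CPM against 0.171 and 0.439 CPM. For nhr-67 the levels were 9.16 and 6.65 CPM in xrn-2cd against 1.11 and 0.716 CPM in WT (log2 3.12 ± 0.65 SE, edgeR, BH-adjusted p = 0.0688), without overlap. The nhr-2 levels were 25.7 and 21.6 CPM in xrn-2cd against 0.929 and 10.6 CPM in WT. In the other direction nhr-114 was at 64.5 and 18.3 CPM in xrn-2cd against 175 and 239 CPM in WT (-2.57 ± 0.66, BH-adjusted p = 0.0913 in edgeR), and nhr-76 at 7.05 and 7.77 CPM against 23.7 and 27.7 CPM (-1.79). The fat metabolism regulator nhr-49 was at 216 and 210 CPM in xrn-2cd against 125 and 157 CPM in WT (0.60 ± 0.29, BH-adjusted p = 0.239 in edgeR), without overlap. Tissue markers moved in the same libraries: summed yolk genes were at 18.2 to 35.3 CPM in xrn-2cd against 14214 to 34067 CPM in WT, oocyte genes at 213 to 240 against 1015 to 5127 CPM and epidermal genes at 295 to 584 against 2116 to 2892 CPM. The epidermal sum followed the collagen col-19, at 2.00 and 6.26 CPM in xrn-2cd against 2084 and 2884 CPM in WT. The epidermal markers dpy-7, rol-6, bli-1 and mlt-10 went the other way and were higher in xrn-2cd at both hours. The part of these tissue markers in the levels of the members was not tested.

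The genes of the longest chromosome V runs, taken up after their values were seen, had positive fitted differences in xrn-2cd, as did 166 of the 207 members. Shorter runs on that chromosome also held genes with lower levels in xrn-2cd, such as nhr-55 and nhr-179. The log2 differences were 1.31 to 2.66 for the 7 genes nhr-206, nhr-208, nhr-207, nhr-209, nhr-154, nhr-153 and nhr-136, 0.97 to 1.34 for the 7 of the run nhr-56 to nhr-96, 0.57 to 1.66 for the 7 of the run nhr-161 to nhr-42, and 1.28 to 2.33 for the 6 fitted members of the run nhr-185 to nhr-124. None of these genes passed the threshold in edgeR, and the first run is described further because it holds the highest of these values, a choice made after they were seen. For nhr-206 the levels were 7.39 and 7.19 CPM in xrn-2cd against 1.10 and 1.20 CPM in WT, and for nhr-153 40.3 and 36.2 CPM against 13.9 and 10.7 CPM. In late xe31 the 7 genes of that run had differences between -0.59 and 0.15.

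The 4 resequenced libraries come from RNA that is also in the time course. Here edgeR called 0 of 210 members, where 0% of all genes were called in either direction. At an unadjusted p under 0.05, 12 members were higher and 1 lower in xe31, where 8.68% and 2.84% of all genes were. The greater depth gave nhr-2 8.99 and 32.7 CPM in xe31 against 0.805 and 6.24 CPM in WT (log2 2.92 ± 0.33 SE, edgeR, BH-adjusted p = 0.152), and nhr-241 0.504 and 6.15 CPM against 0.0169 and 0 CPM. The difference between the xrn-2cd effect and the resequenced xe31 effect, each against its own WT, was not called for any of 211 members by edgeR, where 0.00528% of all genes were called up and 0.0581% down. For 35 members the difference was positive and for 3 negative with an unadjusted p under 0.05, beside 11.4% and 9.78% of all genes, and the median difference was 0.71 for members and 0.11 for all genes. The lower ones were nhr-114 (-2.41), nhr-76 (-1.74) and nhr-68 (-1.04).

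The RNAi experiments target xrn-2 without a temperature shift, and much of its transcript remained. It was at 79.5 CPM against 132 CPM in mock in the polyA pair, and at 65.9 and 72.7 CPM against 79.95 CPM after rRNA depletion. In the polyA pair, which has 1 library per treatment and no test, 46 members were past 2-fold higher under RNAi, 6 past 2-fold lower and 124 in between, among members with at least 100 counts. The higher ones make up 26.1%, where 25.4% of all 13970 genes were higher and 7.23% lower. The median log2 ratio was 0.47 for members and 0.37 for all genes. Under TMM scaling, which brings the median of all genes to 0.03, the counts were 29 higher and 12 lower and the member median was 0.13, so that 70.7% of the members past 2-fold were higher in place of 88.5%. The receptor nhr-2 had 831 counts under RNAi against 21 in mock (log2 4.95, 95% interval 4.39 to 5.72), well beyond that shift. With 269 and 163 counts under RNAi against 0 in mock, nhr-265 was at least 73.3-fold higher and nhr-241 at least 44.4-fold. For nhr-254 177 counts stood against 1, for nhr-113 367 against 2 and for nhr-155 293 against 3, ratios of 145, 150 and 79.8. The conserved receptor nhr-91 had 1475 counts under RNAi against 204 in mock (2.56) and nhr-49 6501 against 3022 (0.81). Lower under RNAi were nhr-5 with 240 against 832 counts (-2.08) and nhr-76 with 266 against 634 (-1.54).

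In the rRNA-depleted libraries edgeR called 0 of 182 members, where 0% of all genes were called, and 7 members were higher and 7 lower at an unadjusted p under 0.05, where 9.34% and 5.32% of all genes were. The medians were -0.03 for members and 0.03 for all genes. The levels of nhr-2 were 6.94 and 10.5 CPM under RNAi against 0.668 CPM in mock (log2 3.69 ± 0.63 SE, edgeR, BH-adjusted p = 0.107), and those of nhr-5 were 6.68 and 4.22 CPM against 27.3 CPM (-2.32 ± 0.43, BH-adjusted p = 0.117 in edgeR). For both genes the 2 RNAi values lay on 1 side of the mock value. For nhr-253 67 counts over both RNAi libraries stood against 1 in mock, a ratio of 26.7 with an interval of 4.63 to 1070. The RNAi libraries differed from each other for nhr-113, at 0.752 and 4.26 CPM against 0.154 CPM in mock, and for nhr-265, at 0 and 1.69 CPM against 0.0514 CPM. Yolk genes summed to 356 CPM under RNAi against 29086 CPM in mock in the polyA pair, and to 724 and 4436 CPM against 20048 CPM after rRNA depletion. The epidermal marker col-19 was at 1.61 CPM under RNAi against 2325 CPM in mock in the polyA pair. After rRNA depletion it was at 168 and 25.3 CPM against 1939 CPM. The epidermal markers dpy-7, rol-6, bli-1 and mlt-10 were higher in each RNAi library than in its mock. In the polyA pair dpy-7 was at 281 CPM under RNAi against 1.56 CPM in mock. The part of the yolk and epidermal markers in the levels of the members was not tested.

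**Figure D5:**
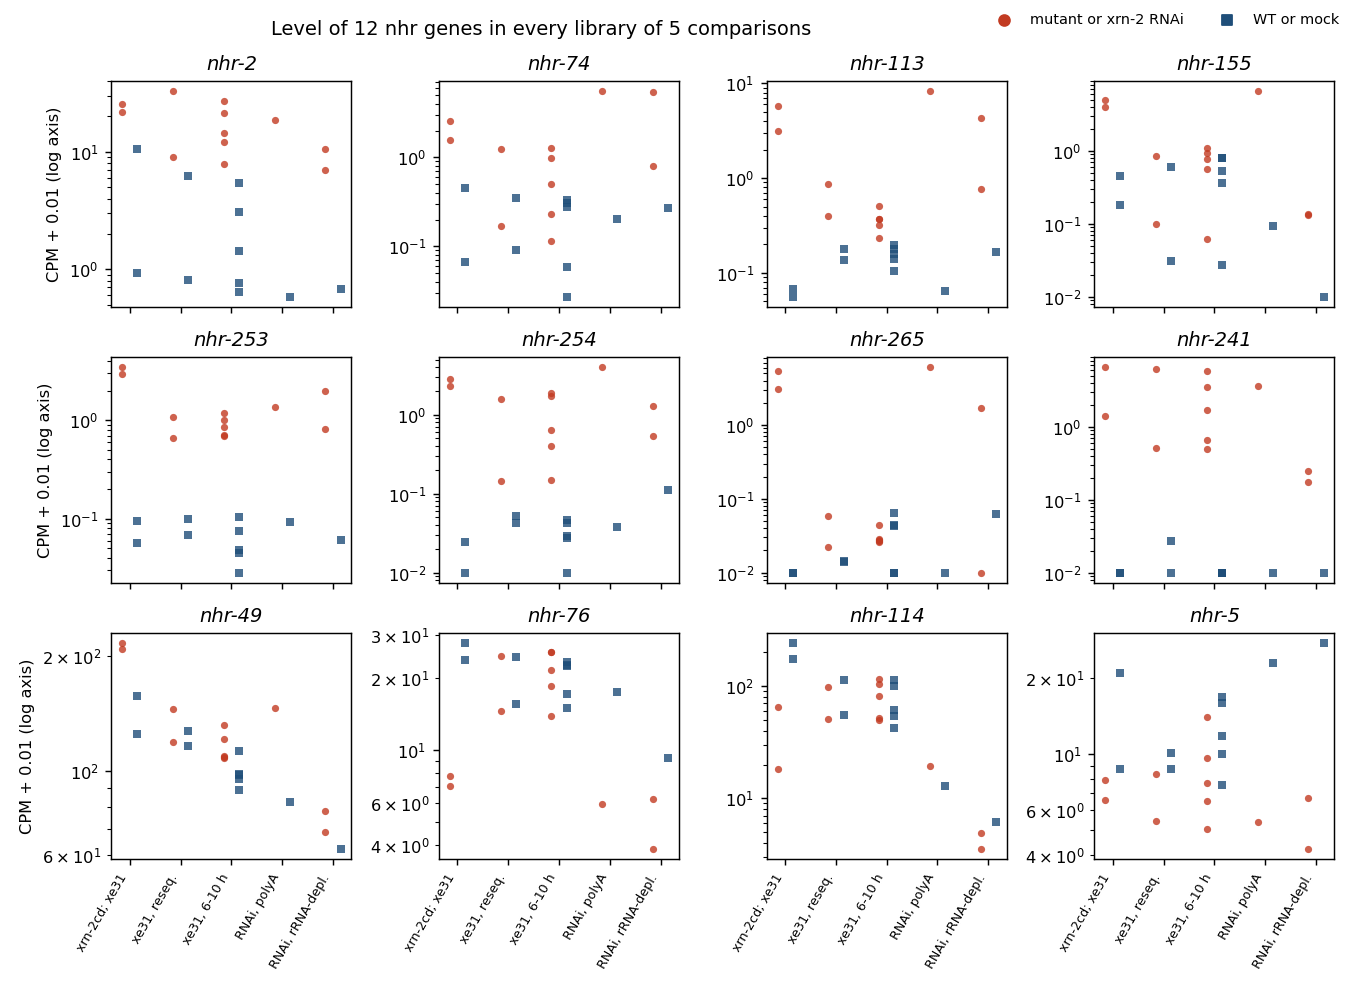
CPM plus 0.01 on a log axis for 12 nhr genes in each library of 5 comparisons, mutant or xrn-2 RNAi in red circles and WT or mock in blue squares, where points at 0.01 are libraries with 0 counts. In each comparison the red points of nhr-2 and nhr-253 lie above the blue ones, and those of nhr-76 lie below them in xrn-2cd and in both RNAi comparisons.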

How the data were processed

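For each RNA library the authors deposited whole-number read counts of every gene, and of a window after and a window before it (named downstream and upstream in the files). RNA was extracted with TRI Reagent and DNase-treated, and libraries were made with TruSeq Standard mRNA or, for the rRNA-depleted ones, NuGEN Ovation Universal kits, per the labels' protocols. Submitters' processing notes name genome build ce10. Neither the aligner, the counting program and strand use nor the window lengths are stated in those sources. Of 51 samples, 35 RNA libraries were analysed, and 16 ChIP and input samples were not analysed here. The polyA RNAi tables also hold 4 gene and 8 window columns of another series, which were not used. Columns were assigned by their names.

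In R 4.3.3, edgeR 4.0.16 tested the counts of all genes by quasi-likelihood (TMM, filterByExpr with a minimum count of 10) and adjusted by the Benjamini-Hochberg (BH) method, with a threshold of 0.05. CPM values use TMM-scaled library sizes, except for the polyA RNAi pair. CPM is not scaled for length and does not rank genes. For the time course, hour was the block and strain effects were estimated in early, middle and late hours, so hours stand in for replicates. The p-values reflect the spread among these libraries alone, 1 per strain and hour. The small experiments had hour as a block where hours were sampled. In the polyA pair, log2 ratios used a pseudocount of 1. The downstream ratio used 1 edgeR model over gene and downstream counts, restricted to genes reaching 20 downstream counts in total and 10 gene counts on average. The upstream window was fitted for genes with at least 20 upstream counts. The window table holds 191 members, of which 6 have no upstream value. Floors are 3 counts over a group, and intervals (95%, exact binomial) and floors cover counting error only. The edgeR fits of the late strain effect, the WT course, the xrn-2cd expression and the late downstream ratio were tested on simulated counts. Those counts were constant over hours apart from the changes set in them. The other fits, among them the upstream window and the DESeq2 runs, were not simulated.

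The members, role lists and tests were chosen with earlier results of these data known. The naming rule took role-list genes, up to 8 called rises and 8 called falls of greatest size per comparison (for windows of hours, moving the same way in each hour), up to 6 of each for the ratio, the 5 highest members in WT and those at the count minimum. Members without a call are named by example. Where nothing was past the threshold, genes with an unadjusted p under 0.05 and those named elsewhere were taken, and nhr-5 and chromosomal runs were chosen after their values were seen. Alternatives were DESeq2 1.42.0, its size factors, no count filter, no hour block, WT shifted by 1 h, other bases and minimums for the ratio, and leaving out each hour. Chromosome names and gene order come from RefSeq WBcel235. No sequence or genome of the files' build was used here.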

Additional observations from a re-analysis of the deposited data

Results flagged for a closer look

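For nhr-152 the xe31 minus WT log2 difference at 10 h was -0.53, apart from the other late hours, which lay between -0.27 and -0.18. Among groups of this size such a gap arises by chance in about 1 of 20. The number of groups looked at is not given here, so nothing is read from this gap.

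The strain difference changed between the early and the late hours for 15 members by the test of the change itself (edgeR, BH-adjusted). It changed sign or grew upward for nhr-253 (4.68, 4.03 late against -0.65 early), nhr-254 (4.42, 5.14 against 0.71), nhr-236 (2.83, 2.90 against 0.07), nhr-74 (1.42, 1.63 against 0.21), nhr-273 (1.16, 0.93 against -0.22), nhr-235 (0.95, 0.34 against -0.61) and nhr-234 (0.81, 0.28 against -0.53). It moved downward for nhr-99 (-0.75, -0.44 late against 0.31 early), nhr-207 (-0.65, -0.59 against 0.06), nhr-61 (-0.60, -0.48 against 0.11), nhr-59 (-0.59, -0.57 against 0.02), nhr-107 (-0.48, -0.34 against 0.14), nhr-20 (-0.47, -0.26 against 0.21), nhr-43 (-0.38, -0.24 against 0.14) and nhr-69 (-0.33, -0.29 against 0.04).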

How the results depend on the processing

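Single genes called in a comparison kept their direction and side of the threshold in 1675 of the alternative values, lost the call in 243 and turned in 3. The 3 that turned were, for the early difference against WT 1 h later, nhr-235 (0.19) and nhr-121 (0.13), and the late downstream ratio of nhr-253 with library size as the base (2.46). The cause was not tested. No paired analysis was possible because the groups compared share at most 1 replicate number in the labels, that of the polyA pair, which has no test. Libraries of the same hour are matched through the hour block.

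Without the hour block, members called up and down numbered 0 and 0 early, 0 and 0 in the middle hours, and 2 and 0 for late minus early, with 1 down late. Against WT 1 h earlier there were 3 up early and 17 down late. Against WT 1 h later there were 8 up and 1 down early and 16 down late. DESeq2 gave 12 up and 11 down for the xe31 middle hours, where no filter on low counts left 1 up, and 4 up and 13 down for those of WT. Without that filter the resequenced fit called 1 up and the xrn-2cd fit 6 up, and DESeq2 size factors gave 7 up there. The late downstream ratio had 2 up with the upstream window as base, which left few genes to test, and 0 down with library size as base. At a minimum of 50 downstream counts the xrn-2cd ratio had 2 down. TMM scaling of the polyA pair, chosen after seeing the data, gave 29 up and 12 down.

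Leaving out 1 hour gave 0 to 2 up and 0 to 4 down early, 1 to 5 and 0 to 9 in the middle hours, 14 to 19 and 31 to 54 late, and 2 to 12 and 4 to 12 for late minus early. The xe31 course had 11 to 15 up and 70 to 92 down, the WT course 6 to 14 and 56 to 75, the xe31 middle hours 0 to 10 and 0 to 12, and those of WT 0 to 9 and 0 to 10. The early ratio had 0 to 1 up and 0 to 0 down, the late ratio 34 to 47 and 0 to 3, and the upstream window 17 to 21 and 0 to 1. Median member differences with 1 library per group, which carry no test, were -0.061 and -0.045 for the resequenced, 0.44 to 0.61 for the xrn-2cd and -0.084 and -0.058 for the rRNA-depleted libraries. Of the members with a WT mean under 1 CPM, 8 were among the 16 late rises and 0 among the 50 late falls. These members have the fewest reads, and the part of depth in this split was not tested. The part of the membership minimum, summed over both strains, was not tested either.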
